A study of Homo sapiens with 6 samples.

Results

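The 32 genes described here are the enzymes, transporters and regulators of glycolysis (25 genes) and 7 further genes that cells are known to induce when oxygen is low. They were taken as a named list and matched by symbol to the 26485 symbols in the deposited tables. All 32 reached 1 TPM (a transcript level scaled by gene length and library total) in at least 2 of the 6 libraries, as did 14195 genes in all, which were tested together. The libraries are from PC9, an EGFR-mutant line from a human lung adenocarcinoma, and from the sublines PC9-BrM4 and PC9-AMG, each grown in conventional culture with no other treatment in the labels and sequenced as 2 libraries of mRNA. The name PC9-BrM4 is in general use for cells selected from PC9 by metastasis to brain, though the labels do not say so. The labels leave the abbreviation AMG unexplained, and the tables assigned to PC9-AMG by the sample records carry EMG in their names, so its identity rests on those records. The labels do not say whether the 2 libraries of a line came from separate cultures, so p-values measure the spread between these samples only, which may be technical.

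Glycolysis breaks glucose down to pyruvate in the cytosol. Glucose enters through transporters of the GLUT family, hexokinase traps it as a phosphate ester, phosphofructokinase commits it to the pathway, and lactate dehydrogenase turns the pyruvate into lactate, which leaves the cell through monocarboxylate transporters. Many of these genes are targets of the hypoxia-inducible factors (HIFs), whose alpha subunits are destroyed by the VHL ubiquitin ligase after prolyl hydroxylation in oxygen, and which bind DNA at short elements with the core ACGTG or GCGTG. Lung adenocarcinoma cells are known for high glucose uptake and lactate release, also in oxygen.

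Each library rested on an estimated 2.66 to 4.39 gigabases of aligned sequence, and 13455 to 13764 genes per library reached 1 TPM. Keratins and other epithelial markers summed to 9416 to 14460 TPM per library, lowest in PC9-BrM4 and highest in PC9-AMG, with 6 of 9 markers at 1 TPM or more in some library. The lung markers of this list did not reach it. The lineage factor NKX2-1 and SFTPB stayed at or near 0, and NAPSA at 0 to 0.887 TPM. Marker sums of other cell types were far lower, at 42.3 to 50.2 TPM for 5 leukocyte genes (mostly CD68, with the defining PTPRC at 0 to 0.15 TPM), 5.99 to 20.7 TPM for 7 fibroblast and endothelial genes (with COL1A2 at 0 throughout) and 15.0 to 27.3 TPM for 4 astrocyte genes (nearly all ALDH1L1, with GFAP at 0 to 0.228 TPM). The last 2 sums were highest in PC9-AMG. COL1A1, CDH5 and ALDH1L1 were higher there than in PC9 (log2 1.40, 0.53 and 0.62, limma adjusted p = 3.84e-05, 0.0091 and 0.000174), and PECAM1 was not called. Of the leukocyte genes, CSF1R rose from 0.53 and 0.72 TPM in PC9 to 4.3 and 3.8 TPM in PC9-AMG (limma adjusted p = 4.5e-05). CD68 fell there (log2 -0.29, limma adjusted p = 0.00168). The part of these genes in the results was not tested. Between the replicates of a line, the members differed by a median of 0.0412 (PC9), 0.0601 (PC9-BrM4) and 0.0585 (PC9-AMG) on the log2 scale, and CA9 differed most in each line, by 0.34, 0.26 and 0.52.

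The members held a nearly constant share of each library, at 2.84% and 2.87% of all TPM for PC9, 2.999% and 2.93% for PC9-BrM4, and 2.76% and 2.85% for PC9-AMG. Within this share single genes moved in both directions. Against PC9, 21 of the 32 were called in PC9-BrM4, 10 higher and 11 lower, where 46.6% of all tested genes were called (23.4% higher and 23.1% lower). In PC9-AMG 18 were called, 13 higher and 5 lower, where 55.5% of all tested genes were (27.8% and 27.7%). Between the sublines 22 were called, 14 higher and 8 lower in PC9-AMG, where 56.1% of all tested genes were (28.1% and 28%). Some of these calls, higher and lower, ended when a library of the lines compared was left out. Leaving out such a library also lowered the number of calls over all tested genes, in both directions. A call here is a Benjamini-Hochberg adjusted p of at most 0.05 in limma, over all tested genes, on log2(TPM + 1), a scale that understates the change of low genes. The comparisons share libraries and 1 estimate of the spread, so they are not independent of each other.

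Most of these changes were small. Among the members, 4 of 32 in PC9-BrM4, 7 of 32 in PC9-AMG and 9 of 32 between the sublines were called with an absolute log2 fold change of at least 0.5, where 16.3%, 21.4% and 22.9% of all tested genes were. The median log2 fold change of the members was -0.05, 0.07 and 0.15 in these comparisons, beside -0.0016, -0.0058 and -0.0059 over all tested genes. The median size of a change regardless of sign was 0.24, 0.24 and 0.22 for the members and 0.21, 0.26 and 0.26 for all tested genes. The libraries of PC9-BrM4 and PC9 did not overlap for 29 members and those of PC9-AMG and PC9 for 27, against backgrounds of 75.2% and 79.8% of tested genes.

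**Figure D1:**
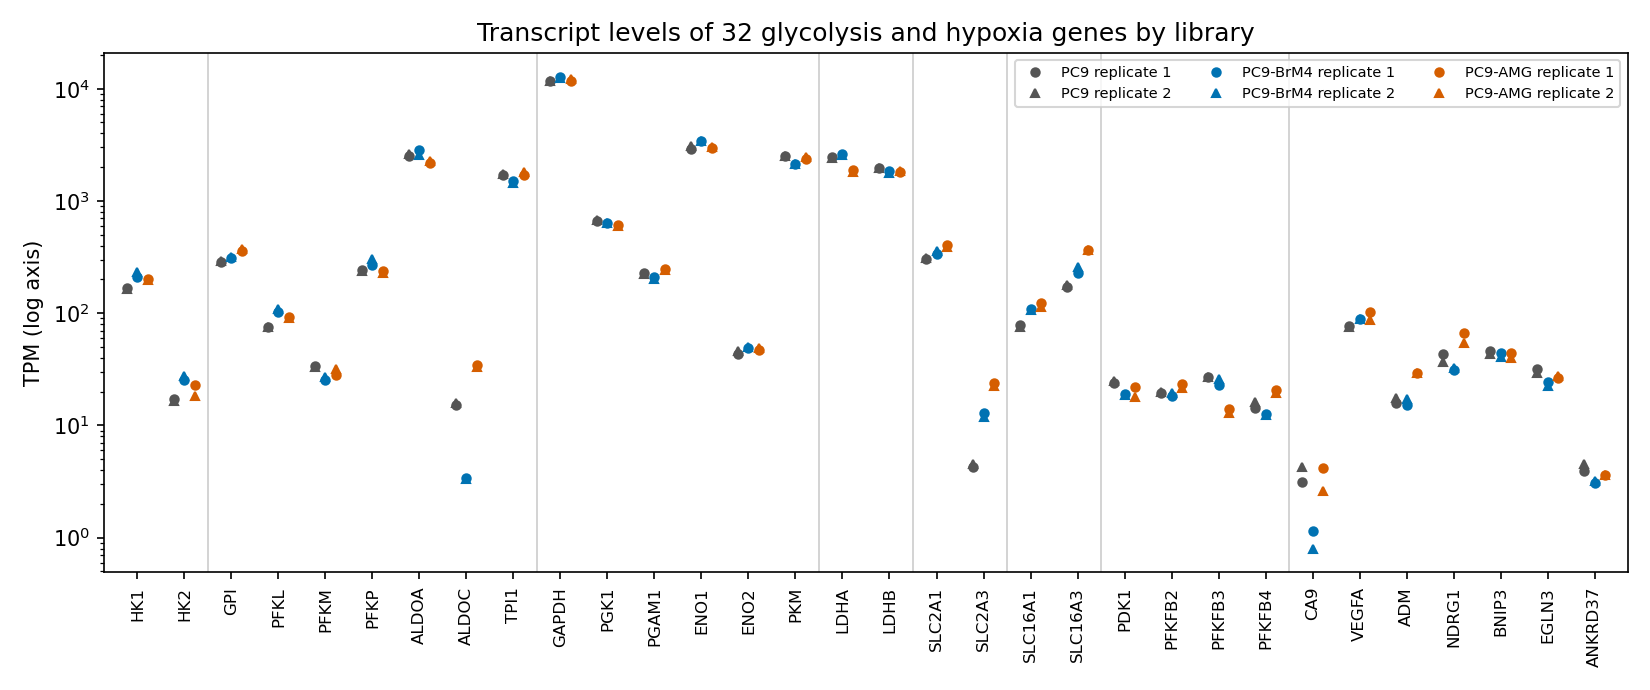
TPM of each gene on a log axis in the 6 libraries, with colour for the line, shape for the replicate, and vertical lines between roles. GAPDH stands highest at 11609 to 12817 TPM and CA9 lowest at 0.80 to 4.27 TPM, and most genes show 6 nearly level points, while ALDOC and SLC2A3 spread apart by line and CA9 is lower in PC9-BrM4 only.

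Stretches of genomic sequence before the start sites of 5 members are shown because they show where the HIF core motif lies in genes with different changes, and these 5 were chosen after their values were seen. They are from RefSeq (build GRCh38.p14), 5′ to 3′ on the strand of the gene, and end before the first annotated exon. Capitals mark ACGTG or GCGTG on either strand, so that a capital CACGT or CACGC is a match read on the other strand, and CACGTG holds 1 match on each strand.
PFKFB3 (chr10:6144671-6144879, plus strand): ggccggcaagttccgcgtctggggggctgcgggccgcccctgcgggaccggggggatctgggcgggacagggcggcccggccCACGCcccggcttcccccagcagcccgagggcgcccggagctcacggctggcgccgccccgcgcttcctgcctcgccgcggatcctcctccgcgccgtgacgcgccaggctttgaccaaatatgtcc
LDHA (chr11:18394313-18394387, plus strand): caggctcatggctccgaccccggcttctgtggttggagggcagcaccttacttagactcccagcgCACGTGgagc
PGK1 (chrX:78103998-78104168, plus strand): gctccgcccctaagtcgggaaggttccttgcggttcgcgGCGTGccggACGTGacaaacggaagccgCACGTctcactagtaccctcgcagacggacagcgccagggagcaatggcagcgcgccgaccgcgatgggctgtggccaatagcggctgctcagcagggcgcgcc
BNIP3 (chr10:131982014-131982173, minus strand): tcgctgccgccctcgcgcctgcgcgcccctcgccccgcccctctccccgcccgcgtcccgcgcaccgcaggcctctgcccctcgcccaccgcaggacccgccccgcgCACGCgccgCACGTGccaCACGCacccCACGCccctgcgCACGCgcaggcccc
SLC16A3 (chr17:82228185-82228396, plus strand): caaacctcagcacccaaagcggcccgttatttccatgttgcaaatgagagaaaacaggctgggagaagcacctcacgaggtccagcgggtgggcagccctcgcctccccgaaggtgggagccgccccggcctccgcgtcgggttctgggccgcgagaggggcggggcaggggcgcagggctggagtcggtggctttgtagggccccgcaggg

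The printed stretches hold 1 match (PFKFB3), 2 (LDHA), 3 (PGK1), 6 (BNIP3) and 0 (SLC16A3), in stretches of 209, 75, 171, 160 and 212 bases, so that these numbers are not set against each other. In the 250 bases before the RefSeq start LDHA holds 5 matches, and the other 4 genes hold the numbers printed here. Of these genes, PFKFB3, LDHA and PGK1 were lower in PC9-AMG, SLC16A3 was higher in both sublines, and BNIP3 was not called in any comparison. Over the 250 bases before the RefSeq start, 16 of the 27 members that matched the promoter table held either core (59.3%), beside 43.2% of the 35116 promoters in the table. ACGTG alone was in 11 of the 27 (40.7%) and in 18.5% of all promoters, and GCGTG in 9 of the 27 (33.3%) and in 32.2%. Such a match is a description of the letters in this window and not evidence of binding. The 35116 promoters were not limited to tested genes or to 1 window per gene, while the members were. The shares are thus of unlike sets, and the members include known HIF targets. For ALDOA, PGAM1 and HK2 the RefSeq start lay 11189, 1548 and 1472 bases downstream of the start of the deposited model.

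SLC2A3 and SLC2A1, the glucose transporters among the 32 genes, were higher in both sublines. SLC2A3, which encodes the high-affinity transporter GLUT3 (chromosome 12, 7919228 to 7936296, hg38), stood at 4.30 and 4.52 TPM in PC9, 12.9 and 11.99 TPM in PC9-BrM4, and 23.8 and 22.5 TPM in PC9-AMG. The 3 lines did not overlap, and the PC9-BrM4 and PC9-AMG means were 2.82-fold and 5.25-fold that of PC9. Its log2 fold changes were 1.31 ± 0.0781 (SE) and 2.16 ± 0.0781 (limma adjusted p = 2.35e-05 and 3.44e-06), and 0.85 between the sublines (limma adjusted p = 8.96e-05). SLC2A14, a close copy of SLC2A3 with which reads could be shared, was lower at 0.561 to 3.10 TPM, and it too was lowest in PC9 and highest in PC9-AMG, so the split between these genes is uncertain.

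SLC2A1, which encodes GLUT1, the main glucose carrier of many tumour cells (chromosome 1, 42925375 to 42959176), stood at 304 and 311 TPM in PC9, 340 and 358 TPM in PC9-BrM4, and 402 and 386 TPM in PC9-AMG. It rose with log2 fold changes of 0.18 and 0.35 (limma adjusted p = 0.0130 and 0.000442), again with no overlap between lines. The PC9-BrM4 call ended when PC9 replicate 1, PC9 replicate 2 or PC9-BrM4 replicate 2 was left out (limma adjusted p = 0.0878, 0.0507 and 0.0631). The call between the sublines, with a log2 difference of 0.18, ended without PC9-BrM4 replicate 1 or PC9-AMG replicate 1 (limma adjusted p = 0.0537 and 0.0630). In PC9-AMG the 125 tested genes within 5 Mb of SLC2A1 were higher too, with 87.2% above PC9 and a median log2 fold change of 0.48, which exceeds that of SLC2A1 itself. SLC2A1 still made up 94.4% to 98.6% of the summed TPM of both transporters in each library.

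SLC16A3 and SLC16A1, the lactate transporters among the 32 genes, were higher in both sublines as well, unlike the related but far less abundant SLC16A7 described with the further glycolysis genes. SLC16A3, which encodes MCT4, an exporter of lactate from glycolytic cells (chromosome 17, 82228406 to 82239499), stood at 171 and 177 TPM in PC9, 229.6 and 258 TPM in PC9-BrM4, and 369 and 364 TPM in PC9-AMG. The lines did not overlap, and the means were 1.40-fold and 2.11-fold that of PC9 (log2 0.48 ± 0.0584 and 1.07 ± 0.0584 SE, limma adjusted p = 0.0005 and 1.46e-05). Between the sublines the log2 difference was 0.59 (limma adjusted p = 0.000129). The 90 tested genes within 5 Mb of SLC16A3 had a median of 0.46 in PC9-AMG, with 92.2% higher, and the value of SLC16A3 with that median removed was 0.61.

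SLC16A1, which encodes MCT1, a carrier of lactate in either direction (chromosome 1, 112911848 to 112956353), stood at 78.2 and 75.9 TPM in PC9, 110.0 and 107 TPM in PC9-BrM4, and 123 and 114 TPM in PC9-AMG. It rose by 0.49 and 0.61 on the log2 scale (limma adjusted p = 0.000272 and 7.52e-05), and the difference between the sublines, 0.13 in log2, did not pass (limma adjusted p = 0.0682). Its neighbours within 5 Mb did not move with it, with medians of 0.0345 and -0.10. SLC16A3 made up 68.6% and 70.0% of the summed TPM of both transporters in PC9, 67.6% and 70.8% in the PC9-BrM4 libraries, and 75.0% and 76.1% in those of PC9-AMG. Only the PC9-AMG shares lay outside the range of the others.

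**Figure D2:**
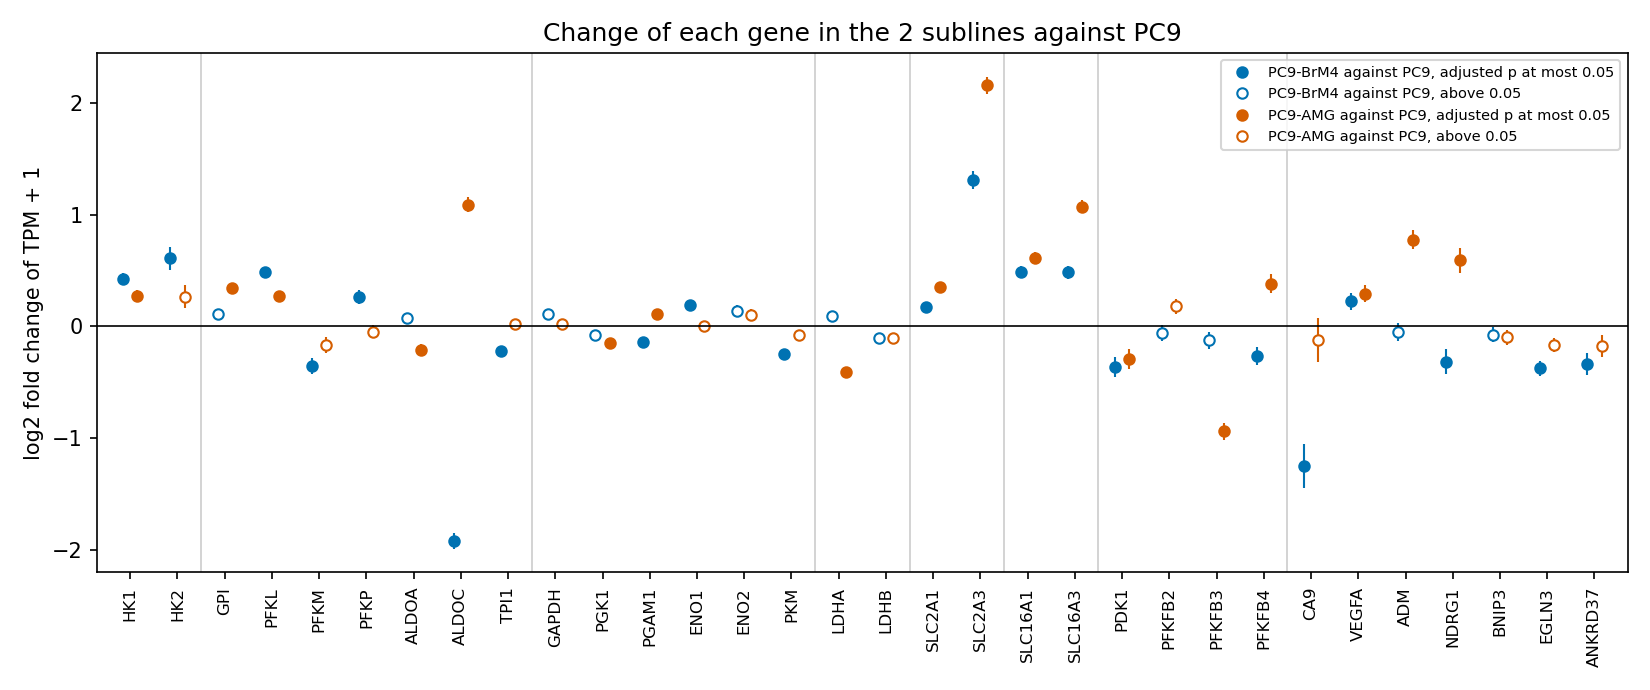
Log2 fold change of each gene in PC9-BrM4 (blue) and PC9-AMG (orange) against PC9, with bars for the standard error of the limma fit, filled points for calls, and vertical lines between roles. The 4 transporters sit above 0 in both sublines, ALDOC lies at -1.92 and 1.09, and the lower glycolysis enzymes stay between -0.25 and 0.19.

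The first enzymes of the pathway were mostly higher in the sublines. HK1, the hexokinase of most tissues, stood at 166 and 163 TPM in PC9, 211 and 233 TPM in PC9-BrM4, and 199.8 and 199.2 TPM in PC9-AMG (log2 0.43 and 0.28, limma adjusted p = 0.000544 and 0.00333). HK2, the inducible hexokinase of muscle and many tumours, was an order lower in TPM. Mean sequence coverage per FPKM was 0.113 of the library median for HK1 and 1.0 for HK2, so coverage sets them closer. HK2 stood at 17.2 and 16.6 TPM in PC9 and 25.2 and 27.6 TPM in PC9-BrM4 (log2 0.61 ± 0.103 SE, limma adjusted p = 0.00238). The PC9-AMG libraries, at 22.9 and 18.4 TPM, differed from each other, and the change of 0.27 did not pass (limma adjusted p = 0.0577). The HK2 value went to 0.42 without PC9-AMG replicate 2 (limma adjusted p = 0.0122) and to 0.118 without PC9-AMG replicate 1 (0.302). It was also called with FPKM, quantile normalization, aligned library medians or a filter at a mean of 5 TPM (limma adjusted p from 0.0354 to 0.0423). The share of HK2 in the TPM of both hexokinases stayed between 8.48% and 10.6% in each library.

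Both hexokinases were lower in PC9-AMG than in PC9-BrM4, by -0.15 for HK1 and -0.34 for HK2 in log2 (limma adjusted p = 0.0386 and 0.0237). The HK1 call ended when any library was left out except PC9-BrM4 replicate 1 (limma adjusted p up to 0.157, without PC9-BrM4 replicate 2). The HK2 call ended without PC9-BrM4 replicate 2 or PC9-AMG replicate 2 (limma adjusted p = 0.127 and 0.117). HKDC1, a related hexokinase that is not among the 32 and was singled out after its values were seen, stood at 154 and 151 TPM in PC9, 118 and 128 TPM in PC9-BrM4, and 237 and 236 TPM in PC9-AMG. By TPM HKDC1 was below HK1 in PC9 and PC9-BrM4 and above it in PC9-AMG. Its log2 fold changes against PC9 were -0.305 and 0.63 (limma adjusted p = 0.00175 and 5.24e-05).

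Phosphofructokinase transcripts shifted between their isoforms. PFKL, the liver-type subunit, stood at 74.6 and 75.8 TPM in PC9, 102 and 109 TPM in PC9-BrM4, and 92.0 and 90.05 TPM in PC9-AMG (log2 0.48 and 0.27, limma adjusted p = 0.000241 and 0.00254). PFKM, the muscle-type subunit, stood at 34.1 and 33.3 TPM, 25.4 and 27.0 TPM, and 28.1 and 31.7 TPM in the same order, and its fall in PC9-BrM4 was called (log2 -0.35, limma adjusted p = 0.00582). PFKP, the platelet-type subunit, was the most abundant of these by TPM. It rose in PC9-BrM4 to 271 and 306 TPM from 241 and 238 TPM (log2 0.26, limma adjusted p = 0.00873). In PC9-AMG it stood at 236 and 228 TPM. PFKL thus went from 21.3% and 21.9% of the summed TPM in PC9 to 24.7% to 25.9% in the sublines. PFKP held 68.0% to 69.2% in the PC9 and PC9-BrM4 libraries and less in those of PC9-AMG, at 66.2% and 65.2%.

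Parts of these shifts ran with the genes around them. The 54 tested genes within 5 Mb of PFKL (chromosome 21, 44300034 to 44327381) had medians of 0.28 in PC9-BrM4 and 0.25 in PC9-AMG. The 95 around PFKM (chromosome 12, 48105873 to 48146404) had a median of -0.36 in PC9-BrM4, with 15.8% higher, and PFKM with this median removed lay at 0.0073. PFKP (chromosome 10, 3067520 to 3136805) did not run with the 33 genes around it in PC9-AMG, at -0.0453 beside a median of -0.34. In PC9-BrM4 it lay at 0.26 beside a median of 0.0681. What links the values of neighbouring genes, such as the copy number of a segment, was not tested.

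ALDOC, the brain-type aldolase isozyme (chromosome 17, 28573115 to 28576933), had the widest range over the lines of the 32 genes. It stood at 15.3 and 15.7 TPM in PC9, 3.38 and 3.32 TPM in PC9-BrM4, and 34.8 and 33.4 TPM in PC9-AMG. The 3 lines were far apart, with PC9-BrM4 at 0.217 of the PC9 mean and PC9-AMG at 2.20 times it. The log2 fold changes were -1.92 ± 0.0695 and 1.09 ± 0.0695 (SE, limma adjusted p = 2.78e-06 and 2.67e-05), and the difference between the sublines was 3.01 (limma adjusted p = 2.67e-07). Its neighbours within 5 Mb did not move with it, with medians of 0.0656 and 0.0116. ALDOA, the main isozyme, held 98.4% to 99.9% of the aldolase TPM, so the sum hardly followed ALDOC.

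ALDOA stood at 2519 and 2626 TPM in PC9, 2816 and 2592 TPM in PC9-BrM4, and 2197 and 2250.0 TPM in PC9-AMG. Its fall in PC9-AMG (log2 -0.21, limma adjusted p = 0.00958) lost its call without PC9 replicate 2 or PC9-AMG replicate 1 (limma adjusted p = 0.0667 and 0.0663). Quantile normalization moved ALDOA to -0.0474 and aligned library medians gave -0.22, and both ended the call (limma adjusted p = 0.259 and 0.0689). GPI, which turns glucose 6-phosphate into fructose 6-phosphate, stood at 284 and 292 TPM in PC9, 307 and 315 TPM in PC9-BrM4, and 359.7 and 371 TPM in PC9-AMG. The rise of GPI in PC9-AMG (log2 0.34, limma adjusted p = 0.00033) ran beside a median of 0.23 for its 127 neighbours within 5 Mb, and its log2 change in PC9-BrM4 was 0.11 (limma adjusted p = 0.0527). TPI1, the triose phosphate isomerase, fell in PC9-BrM4 to 1515 and 1443 TPM from 1716 and 1722 TPM (log2 -0.22, limma adjusted p = 0.00665) and stood at 1695 and 1802 TPM in PC9-AMG. The TPI1 call ended with quantile normalization or aligned library medians (limma adjusted p = 0.0725 and 0.0563).

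The 6 enzymes from GAPDH to pyruvate kinase changed little, with a median size of 0.14 in PC9-BrM4 and 0.0900 in PC9-AMG on the log2 scale regardless of sign, below the 0.21 and 0.26 of all tested genes. GAPDH, the most abundant member, stood at 11720.1 and 11701 TPM in PC9, 12817 and 12446 TPM in PC9-BrM4, and 11609 and 12226 TPM in PC9-AMG, and was not called in any comparison. Its log2 fold changes were 0.11 and 0.0248 against PC9 and -0.0843 between the sublines (limma adjusted p = 0.0887, 0.671 and 0.156). ENO1, the main enolase, rose in PC9-BrM4 to 3429 and 3385 TPM from 2913 and 3056 TPM (log2 0.19, limma adjusted p = 0.00795), a call that ended without PC9 replicate 1, with FPKM and with aligned library medians (limma adjusted p = 0.0741, 0.078 and 0.104). PKM, the pyruvate kinase of most tumours, fell there to 2117 and 2143 TPM from 2515 and 2538 TPM (log2 -0.25, limma adjusted p = 0.0017), and the change was -0.0935 with quantile normalization (0.0438).

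PGK1, which makes the first ATP of the pathway, stood at 662 and 683 TPM in PC9, 642 and 632 TPM in PC9-BrM4, and 616 and 594 TPM in PC9-AMG. Only its change in PC9-AMG passed (log2 -0.15, limma adjusted p = 0.0130), and that call ended without PC9 replicate 2 or PC9-AMG replicate 2 (limma adjusted p = 0.103 and 0.0722). PGAM1, a phosphoglycerate mutase, was called lower in PC9-BrM4 (log2 -0.14) and higher in PC9-AMG (0.11), from 228 and 225 TPM in PC9 to 208 and 201 TPM and to 247 and 243 TPM. The PGAM1 calls against PC9 ended without either PC9 library, without PC9-BrM4 replicate 2 in PC9-BrM4, and without either PC9-AMG library in PC9-AMG (limma adjusted p from 0.0756 to 0.192). Its near-identical copy PGAM4 was listed at 33.5 to 42.6 TPM, so reads could be split between them. ENO2, the neuronal enolase, stayed at 43.7 to 50.1 TPM in all libraries and was not called.

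Lactate dehydrogenase transcripts moved toward the B subunit in PC9-AMG. LDHA, the subunit that favours lactate formation (chromosome 11, 18394389 to 18408218), stood at 2456 and 2425 TPM in PC9, 2632 and 2586 TPM in PC9-BrM4, and 1878 and 1805 TPM in PC9-AMG. The PC9-AMG libraries were the lowest and did not overlap the others, with log2 differences of -0.41 ± 0.0397 (SE) from PC9 and -0.50 from PC9-BrM4 (limma adjusted p = 0.000148 and 4.32e-05). The difference of LDHA from PC9 was -0.24 with quantile normalization (limma adjusted p = 0.00401). LDHB, the subunit known from heart, stayed at 1788 to 1955 TPM in all libraries and was not called in any comparison. LDHA made up 55.7% and 55.4% of the summed TPM of both subunits in PC9, 58.8% and 59.1% in the PC9-BrM4 libraries, and 51.2% and 49.4% in those of PC9-AMG, and these ranges did not overlap.

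**Figure D3:**
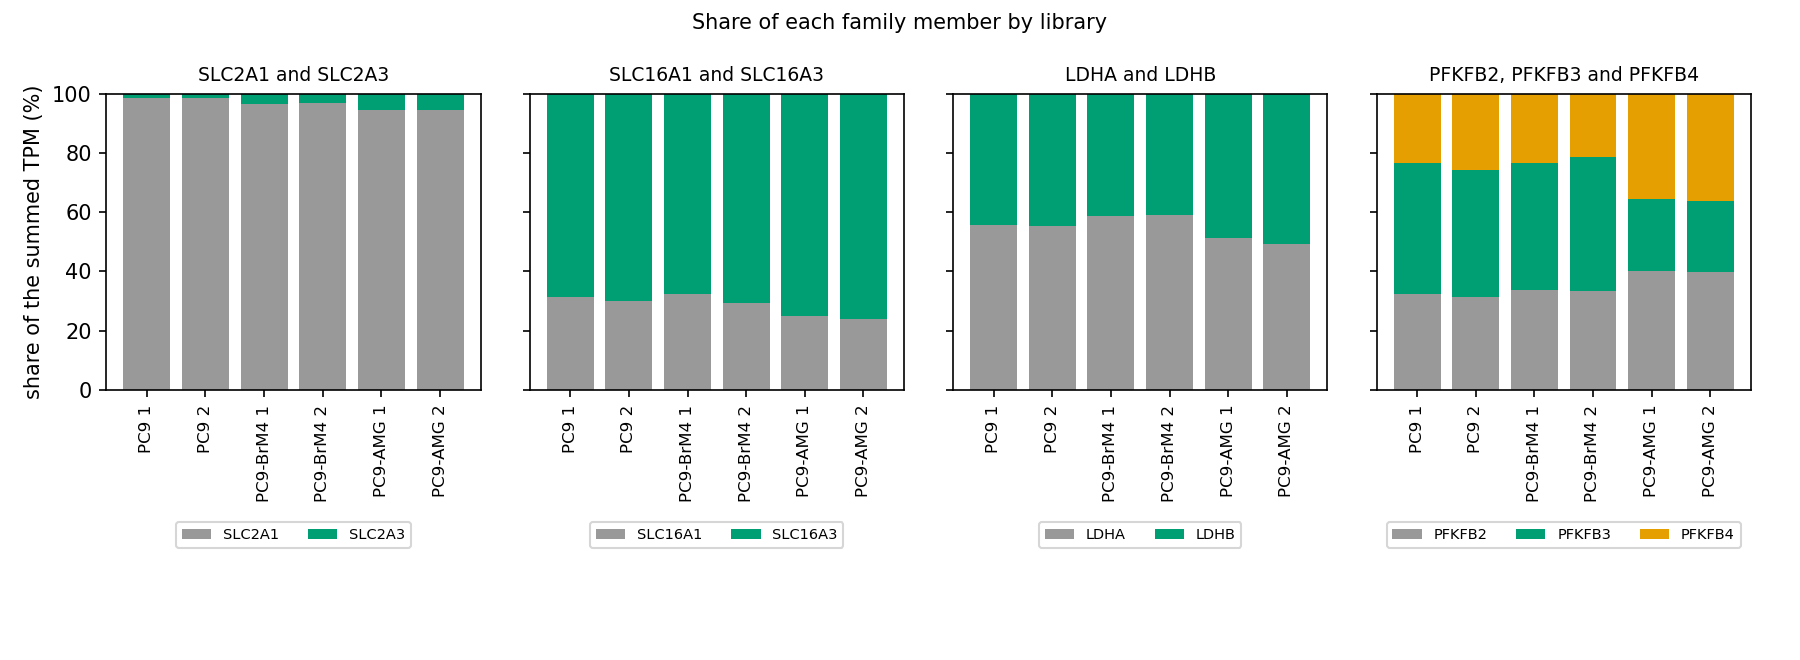
Stacked bars of the share of each gene in the summed TPM of its family, for the 6 libraries (line and replicate number on the x axis). In PC9-AMG the share of LDHA falls to 51.2% and 49.4%, that of PFKFB3 to 24.2% and 24.1%, and that of SLC16A3 rises to 75.0% and 76.1%.

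The PFKFB family makes and breaks down fructose 2,6-bisphosphate, the main activator of phosphofructokinase, and its members moved apart in PC9-AMG. PFKFB3, the isozyme in which the kinase activity dominates (chromosome 10, 6144880 to 6235544), stood at 26.7 and 27.0 TPM in PC9, 23.0 and 26.1 TPM in PC9-BrM4, and 14.1 and 13.0 TPM in PC9-AMG. The PC9-AMG mean was 0.504 of that of PC9 and 0.550 of that of PC9-BrM4 (log2 -0.94 ± 0.0789 and -0.81 ± 0.0789 SE, limma adjusted p = 7.74e-05 and 0.000113). The 27 tested genes within 5 Mb were lower in PC9-AMG too, with a median of -0.33, and PFKFB3 with that median removed lay at -0.61.

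PFKFB4, a hypoxia-inducible isozyme (chromosome 3, 48517684 to 48556794), stood at 14.2 and 16.2 TPM in PC9, 12.6 and 12.4 TPM in PC9-BrM4, and 20.8 and 19.5 TPM in PC9-AMG. It was higher in PC9-AMG than in PC9 (log2 0.38, limma adjusted p = 0.00575) and than in PC9-BrM4 (0.65, limma adjusted p = 0.000434). Its fall in PC9-BrM4 (log2 -0.26, limma adjusted p = 0.0328) lost its call without PC9 replicate 2, PC9-BrM4 replicate 1 or PC9-BrM4 replicate 2 (limma adjusted p = 0.218, 0.0827 and 0.108) and with the replicate block (0.0562). PFKFB2, the isozyme known from heart, stayed at 18.2 to 23.3 TPM, and its difference between the sublines (log2 0.24, limma adjusted p = 0.0221) ended without PC9-BrM4 replicate 1 or PC9-AMG replicate 1 (0.0937 and 0.115). PFKFB3 went from 44.2% and 42.9% of the summed TPM of the 3 genes in PC9 to 24.2% and 24.1% in PC9-AMG, where PFKFB4 made up 35.7% and 36.2%.

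PDK1, a kinase that shuts pyruvate dehydrogenase and so keeps pyruvate out of mitochondria, was the only member called lower in both sublines. It stood at 24.1 and 25.0 TPM in PC9, 19.0 and 18.6 TPM in PC9-BrM4, and 21.9 and 18.0 TPM in PC9-AMG (log2 -0.37 and -0.29, limma adjusted p = 0.0136 and 0.0289). The 40 tested genes within 5 Mb of PDK1 had medians of 0.028 in PC9-BrM4 and -0.18 in PC9-AMG, with 52.5% and 15.0% higher. The PC9-BrM4 call ended without PC9 replicate 2 or either PC9-BrM4 library (limma adjusted p = 0.0712, 0.0508 and 0.0672), and the PC9-AMG call without either PC9 library or PC9-AMG replicate 2 (0.0768, 0.121 and 0.131).

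The 7 remaining hypoxia targets moved in both directions. Against PC9, 1 was called higher and 4 lower in PC9-BrM4, and 3 were called higher and 0 lower in PC9-AMG, beside 23.4% higher and 23.1% lower, and 27.8% and 27.7%, of all tested genes. In PC9-AMG EGLN3 alone among the other 4 had an unadjusted p under 0.05 (0.0381, limma). In PC9-AMG against PC9-BrM4, 4 were higher (CA9, ADM, NDRG1 and EGLN3) and the other 3 (VEGFA, BNIP3 and ANKRD37) were not called, with unadjusted p of 0.388, 0.738 and 0.133 (limma). CA9, a cell-surface carbonic anhydrase and a widely used hypoxia marker (chromosome 9, 35673918 to 35681157), was low throughout, at 3.16 and 4.27 TPM in PC9, 1.15 and 0.80 TPM in PC9-BrM4, and 4.16 and 2.60 TPM in PC9-AMG. Only the PC9-BrM4 libraries stood apart, with a log2 fold change of -1.25 ± 0.198 (SE, limma adjusted p = 0.00177) against PC9. At these low values the change depends on the constant added to the TPM, and it went to -1.83 with 0.1 and to -0.54 with 5 in place of 1.

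ADM, the vasodilator peptide adrenomedullin, stood at 15.9 and 17.5 TPM in PC9, 15.0 and 17.2 TPM in PC9-BrM4, and 29.4 and 29.2 TPM in PC9-AMG, a log2 rise of 0.78 ± 0.0822 (SE) in PC9-AMG (limma adjusted p = 0.000208). NDRG1, a stress-responsive protein linked to differentiation, stood at 42.9 and 36.6 TPM in PC9, 31.1 and 32.2 TPM in PC9-BrM4, and 67.1 and 54.0 TPM in PC9-AMG. It was higher in PC9-AMG (log2 0.59 ± 0.110 SE, limma adjusted p = 0.00286) and lower in PC9-BrM4 (log2 -0.32, limma adjusted p = 0.0480). The latter call ended without PC9 replicate 1, PC9-BrM4 replicate 1 or PC9-BrM4 replicate 2 (limma adjusted p = 0.247, 0.172 and 0.127). VEGFA, the angiogenic growth factor, stood at 77.5 and 75.4 TPM in PC9, 89.6 and 89.5 TPM in PC9-BrM4, and 102 and 86.5 TPM in PC9-AMG (log2 0.23 and 0.29, limma adjusted p = 0.0394 and 0.0116). Its PC9-BrM4 call ended without any 1 of the 4 libraries compared (0.0976 to 0.149), and its PC9-AMG call without PC9 replicate 2 (0.0580). Without PC9-AMG replicate 1 the VEGFA change in PC9-AMG was 0.176 and was still called.

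EGLN3, a prolyl hydroxylase that is itself induced by HIF, fell in PC9-BrM4 to 24.1 and 22.5 TPM from 31.5 and 29.5 TPM (log2 -0.37, limma adjusted p = 0.00296) and stood at 26.5 and 27.7 TPM in PC9-AMG. With the median of -0.20 of its 30 tested neighbours within 5 Mb removed, EGLN3 lay at -0.17 in PC9-BrM4. Its difference between the sublines (log2 0.21, limma adjusted p = 0.0293) ended without PC9-BrM4 replicate 2 or either PC9-AMG library (0.118, 0.0540 and 0.128). ANKRD37, an ankyrin-repeat protein, was low, at 3.96 and 4.51 TPM in PC9, 3.09 and 3.19 TPM in PC9-BrM4, and 3.65 and 3.63 TPM in PC9-AMG. Its PC9-BrM4 call (log2 -0.34, limma adjusted p = 0.0250) ended without PC9 replicate 2 or either PC9-BrM4 library (0.146, 0.0777 and 0.0632), and the change was -0.18 with 5 TPM added in place of 1. BNIP3, a mitophagy receptor, stayed at 40.0 to 46.3 TPM in all 6 libraries and was not called, with log2 fold changes of -0.0725 and -0.0961 against PC9.

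**Figure D4:**
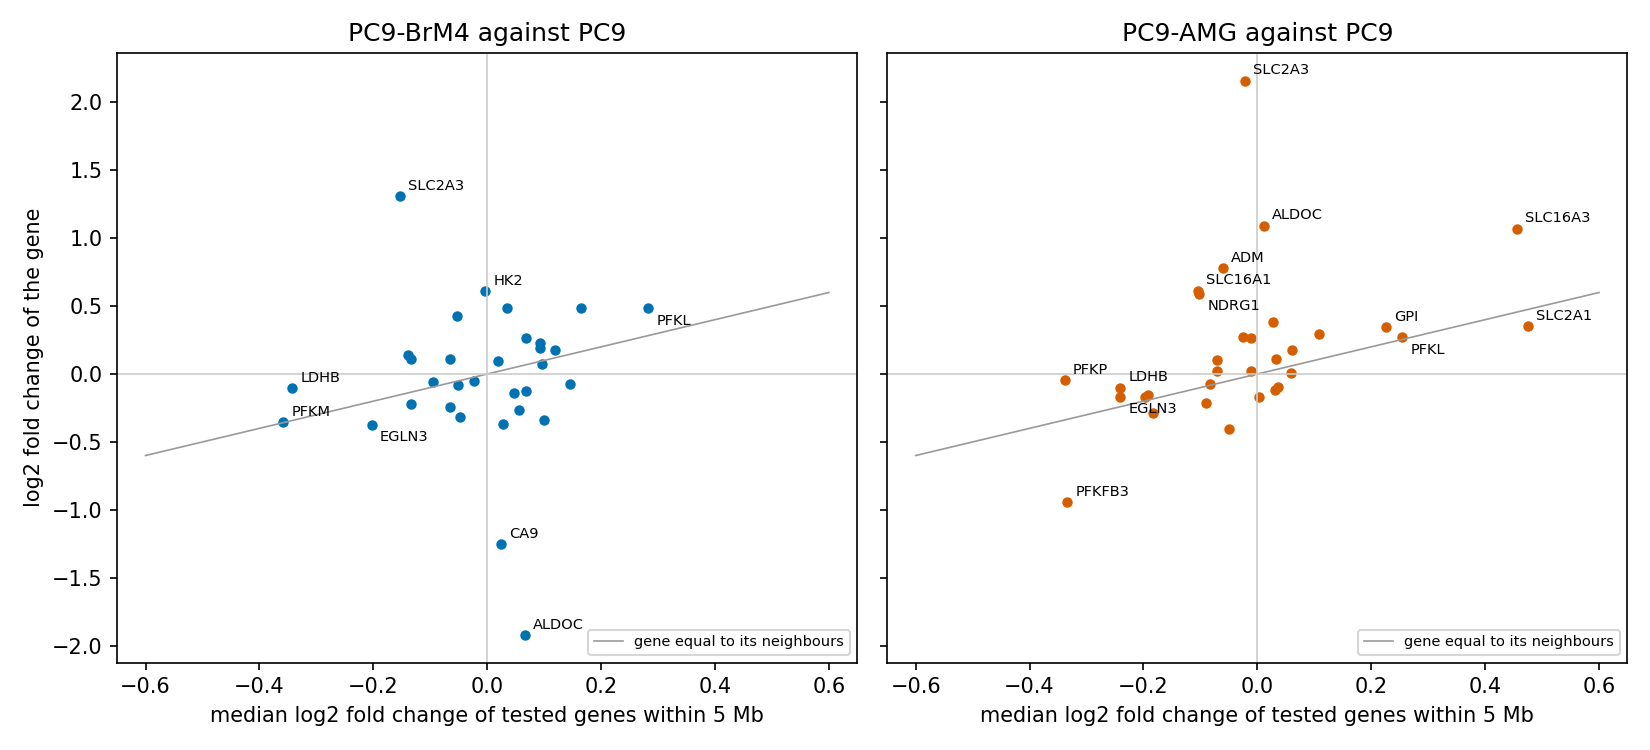
Log2 fold change of each member (y axis) against the median log2 fold change of the tested genes within 5 Mb of its start (x axis), for PC9-BrM4 and PC9-AMG against PC9, with a line where both are equal. ALDOC and SLC2A3 in both sublines and CA9 in PC9-BrM4 stand far from the line, over neighbour medians between -0.15 and 0.0656, while PFKM (-0.35 beside -0.36) and PFKL in PC9-AMG (0.27 beside 0.25) lie on it.

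Other genes of the pathway were read from lists. The counts of called genes in them stand beside 23.4% of all tested genes called higher and 23.1% lower in PC9-BrM4, 27.8% and 27.7% in PC9-AMG, and 28.1% and 28% in PC9-AMG against PC9-BrM4, and with 5 to 29 genes a list they are descriptions. Of 30 further hypoxia targets, 29 were tested, and 1 was higher and 14 lower in PC9-BrM4 (median log2 fold change -0.25), while 10 were higher and 10 lower in PC9-AMG (median -0.0073). Against PC9-BrM4, 13 were higher and 5 lower in PC9-AMG (median 0.20). LOX, a collagen-crosslinking oxidase, fell by 1.33 on the log2 scale in PC9-BrM4 (limma adjusted p = 6.88e-05), and MIR210HG, the host transcript of a hypoxia-induced microRNA, fell by 0.62 and 1.17 in the sublines (limma adjusted p = 0.0113 and 0.000473). Both were low, LOX at 1.11 to 4.35 TPM and MIR210HG at 0.42 to 2.63 TPM.

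Among 11 tested HIF subunits and regulators, 2 were higher and 1 lower in each subline against PC9, and the median log2 fold changes were 0.0631 and -0.0072. HIF1A, the oxygen-regulated alpha subunit, stood at 213 and 204 TPM in PC9, 175 and 179 TPM in PC9-BrM4, and 139 and 123 TPM in PC9-AMG, so its mRNA was lowest in PC9-AMG (log2 -0.24 and -0.67, limma adjusted p = 0.0159 and 0.000109). EGLN2, a prolyl hydroxylase, rose by 0.18 and 0.67 (limma adjusted p = 0.0304 and 7.52e-05). CITED2, a HIF-induced inhibitor of HIF coactivators, was higher in PC9-AMG by 0.82 (limma adjusted p = 4.62e-05). These are mRNA levels, and HIF protein was not measured.

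Of 12 tested genes among 23 other glycolysis genes and isozymes, 3 were higher and 4 lower in PC9-BrM4, while 5 were higher and 3 lower in PC9-AMG (medians -0.11 and 0.0261). The lactate carrier SLC16A7 fell in both sublines, by 1.23 and 0.75 in log2 (limma adjusted p = 0.00022 and 0.00159). The glucose carrier SLC2A12 fell by 0.66 in PC9-BrM4 and rose by 0.53 in PC9-AMG (limma adjusted p = 0.00288 and 0.00632), and PGAM2, the muscle mutase, rose by 0.72 in PC9-AMG (limma adjusted p = 0.00211). These genes were low, SLC16A7 at 0.54 to 3.01, SLC2A12 at 0.89 to 3.36 and PGAM2 at 0.81 to 2.89 TPM. As for CA9, log2 changes at such values depend on the constant added to the TPM. Gluconeogenesis genes split 2 higher and 0 lower of 5 in PC9-BrM4, against 3 and 1 in PC9-AMG (medians 0.0963 and 0.23). FBP1, the phosphatase that opposes phosphofructokinase, rose by 0.71 and 0.31 (limma adjusted p = 9.44e-05 and 0.0031). The mitochondrial carboxykinase PCK2 rose by 0.23 and 0.43, and pyruvate carboxylase, PC, by 0.23 in PC9-AMG (limma adjusted p = 0.0365, 0.00215 and 0.0344).

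At the entry to mitochondria, 13 pyruvate dehydrogenase and pyruvate carrier genes split 4 higher and 4 lower in PC9-BrM4, against 1 and 5 in PC9-AMG (medians 0.0986 and -0.10). PDK3 and PDK4, which like PDK1 inhibit the dehydrogenase, fell in both sublines. PDK3 fell by 0.73 and 0.42 and PDK4 by 0.74 and 0.64 in log2 (limma adjusted p from 0.000781 to 0.00788). PDK4 was low, at 0.44 to 1.62 TPM, and reached 1 TPM in the PC9 libraries only. Its log2 values thus depend on the constant added to the TPM. MPC1, a subunit of the mitochondrial pyruvate carrier, rose by 0.29 in PC9-BrM4 and fell by 0.27 in PC9-AMG (limma adjusted p = 0.0475 and 0.0477). Of 16 citric acid cycle genes, 7 were higher and 1 lower in PC9-BrM4, while 2 were higher and 8 lower in PC9-AMG (medians 0.0970 and -0.13). The number called in either direction, 8 and 10 of 16, was near the share of all tested genes, 46.6% and 55.5%. DLST, a subunit of oxoglutarate dehydrogenase, fell in PC9-AMG to 139 and 139.7 TPM from 335 and 331 TPM (log2 -1.25, limma adjusted p = 2.22e-06), and SUCLA2, a succinyl-CoA synthetase subunit, fell by 0.56 (limma adjusted p = 0.000137). IDH3G, an isocitrate dehydrogenase subunit, rose by 0.32 in PC9-BrM4 and fell by 0.196 in PC9-AMG (limma adjusted p = 0.00191 and 0.014).

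Of 8 pentose phosphate genes, 1 was higher and 4 lower in PC9-BrM4, against 1 and 6 in PC9-AMG (medians -0.0827 and -0.27), beside the shares of all tested genes given above. PGD, the second dehydrogenase of that pathway, fell in PC9-BrM4 by 0.40 and rose in PC9-AMG by 0.11 (limma adjusted p = 0.000144 and 0.0307). RPIA, the ribose phosphate isomerase, rose by 0.21 in PC9-BrM4 and fell by 0.26 in PC9-AMG (limma adjusted p = 0.0272 and 0.00863). PGLS, the lactonase, fell by 0.39 in PC9-AMG (limma adjusted p = 0.000632). Of 7 genes of glucose sensing and the MYC network, 3 were higher and 1 lower in PC9-BrM4, against 3 and 2 in PC9-AMG (medians 0.0008 and -0.0005). MLXIPL, the glucose-responsive factor ChREBP, was low at 1.15 to 5.94 TPM. It fell by 0.73 in PC9-BrM4 and rose by 0.92 in PC9-AMG (limma adjusted p = 0.000733 and 0.000194). TXNIP, an inhibitor of glucose uptake, stood at 90.6 and 85.7 TPM in PC9, 85.4 and 81.4 TPM in PC9-BrM4, and 44.3 and 38.6 TPM in PC9-AMG, and it fell by 1.07 in log2 there (limma adjusted p = 3.35e-05). ARRDC4, a relative of TXNIP, rose by 0.55 in PC9-BrM4 (limma adjusted p = 0.00335).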

How the data were processed

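Messenger RNA of 3 cell lines was sequenced in 6 libraries, made with a stranded kit per the labels' protocols. The authors deposited per gene and library TPM, FPKM and mean coverage (a signal), per the file headers. Tools listed per the submitters' processing notes are StringTie 1.3.4d, HISAT2 2.1.0 and bcl2fastq, with the build hg38, and no role is stated. The whole-series table was not used, so its 6 sample columns, some of which carry EMG where the titles say AMG, stayed out. TPM is relative within a library. Read counts are not given, so no counting interval is printed, and depth was estimated as the median ratio of coverage to FPKM. This ratio lay within 1% of its median for 66.1% to 66.6% of lines per library. It was far below the median for HK1 (0.113 of it), PFKP (0.161), SLC16A3 (0.227) and PFKFB3 (0.062 to 0.063). For their relatives HK2 (1.0), PFKL (0.86), SLC16A1 (0.84) and PFKFB4 (1.0) it was not. Levels and shares compared between such genes thus hold for TPM and could differ by coverage.

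Lines of 1 symbol were summed (GPI was the only member on more than 1 line). Log2(TPM + 1) of genes with at least 1 TPM in 2 libraries was fitted over all 6 libraries with limma 3.58.1 in R 4.3.3, with 1 mean per line and a mean-variance trend. The code was tested on simulated data. The members and lists were chosen with earlier results of these data known. All members are described, and of each list up to 3 genes with the largest change, of which 1 is not reported here. Alternatives were 2 other pseudocounts, 2 other filters, FPKM, 2 scalings, no trend, only the lines compared, a replicate block, the highest line of a symbol, the median of neighbours within 5 Mb removed, and each library left out. The main fit did not pair the samples by replicate number. Of the members, 15 have pseudogenes named after them in RefSeq, GAPDH and BNIP3 the most, and whether reads were split with these was not tested. Only pseudogenes of TPI1 (TPI1P2 and TPI1P3, up to 37.6 TPM summed) and PGAM1 (PGAM1P5, up to 0.555 TPM) had values in the deposited data.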

Additional observations from a re-analysis of the deposited data

Results flagged for a closer look

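For 4 members the change from PC9 was called in opposite directions in the 2 sublines, and the difference between the sublines was itself called. ALDOC was lower in PC9-BrM4 (log2 -1.92) and higher in PC9-AMG (1.09), a difference of 3.01 (limma adjusted p = 2.67e-07). NDRG1 lay at -0.32 and 0.59, a difference of 0.91 (limma adjusted p = 0.000339). PFKFB4 lay at -0.26 and 0.38, a difference of 0.65 (limma adjusted p = 0.000434). PGAM1 lay at -0.14 and 0.11, a difference of 0.26 (limma adjusted p = 0.00109). For ALDOC both calls against PC9 held with each library left out, while the PC9-BrM4 calls of NDRG1, PFKFB4 and PGAM1 did not (limma adjusted p up to 0.247, 0.218 and 0.126), nor did the PC9-AMG call of PGAM1 (up to 0.192).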

How the results depend on the processing

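Over 17 other settings, 12 of 21 member calls in PC9-BrM4, 13 of 18 in PC9-AMG and 15 of 22 between the sublines held in each setting that tested the gene. With libraries left out in turn, the number of members called lower ranged from 6 to 11 in PC9-BrM4 and from 2 to 5 in PC9-AMG. Deviations of same-numbered libraries were hardly correlated over genes (-0.069, -0.028 and -0.063). This shows no strong effect shared by number, but it cannot settle whether such libraries were prepared together. The replicate block gave 10 members higher and 10 lower for PC9-BrM4, 12 and 5 for PC9-AMG, and 14 and 7 between the sublines. It ended the calls of PFKFB4 in PC9-BrM4, PGAM1 in PC9-AMG and HK1 between the sublines (limma adjusted p = 0.0562, 0.0521 and 0.0538). Fitting with no trend ended, in PC9-BrM4, the calls of PGAM1, SLC2A1, VEGFA and NDRG1, in PC9-AMG those of PGK1 and PGAM1, and between the sublines that of HK1 (limma adjusted p from 0.0522 to 0.118). Testing with no filter ended PFKFB4, VEGFA and NDRG1 in PC9-BrM4, PDK1 in PC9-AMG, and HK1 and HK2 between the sublines (limma adjusted p from 0.0645 to 0.126). With the neighbours' median removed, called changes turned sign for PFKM (0.0073, PC9-BrM4), PGK1 (0.0402) and SLC2A1 (-0.12) in PC9-AMG, and for GPI (-0.0105), PFKP (0.13) and SLC2A1 (-0.17) between the sublines. The other reversals were of changes not called. Quantile normalization turned LDHB in PC9-BrM4 (0.0126), and in PC9-AMG ENO1 (-0.0184), PKM (0.0989, called there) and LDHB (0.0633). FPKM and aligned medians turned ENO1 in PC9-AMG (-0.0119 and -0.0092), and aligned medians LDHB between the sublines (-0.0044). With libraries left out in turn, log2 values crossed 0 for ADM in PC9-BrM4 (-0.1387 to 0.0394), for TPI1 (-0.0199 to 0.0679), GAPDH (-0.0126 to 0.0621), ENO1 (-0.0307 to 0.0386) and CA9 (-0.3783 to 0.1397) in PC9-AMG, and between the sublines for LDHB (-0.02 to 0.0262), PDK1 (-0.0575 to 0.2099), VEGFA (-0.0501 to 0.1862) and BNIP3 (-0.0869 to 0.0398). The causes were not tested.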
